A study of Drosophila melanogaster with 24 samples.

Results

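The mitochondrial carriers and fatty acid oxidation enzymes of the *tau*-KO fly brain were described here as a set of 10 genes: *colt*, *aralar1*, *sesB*, *whd*, *CPT2*, *Mcad*, *Mtpalpha*, *Thiolase*, *scu* and *yip2*. Of the 10, 9 were listed by these names among the 16995 genes of the count table, and these 9 also passed the filter on low counts, which kept 7865 genes. *Mcad* was listed under its older name *CG12262* and held 1 count in the 24 libraries together, so it was not tested. The study asked how males and females lacking *tau*, which encodes a microtubule-binding protein, differ in gene expression after traumatic brain injury (TBI). Each library was made from the RNA of 1 dissected brain and read at the 3′ ends of transcripts, with 3 libraries in each of 8 groups. Injured males were taken 1, 2 or 4 h post-TBI and set against uninjured male controls, and injured females, taken at the same hours, against uninjured female controls. All flies were adult and mated, 10 to 14 days old, and carried the *tau* deletion, also the controls. Injury was a blow to the whole body in a spring-driven vial, the high impact trauma device, so it was not confined to the head.

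Mitochondria burn fatty acids by moving the acyl chain across the inner membrane as a carnitine ester and then shortening it in repeated turns of β-oxidation. Carnitine palmitoyltransferases load and unload the carnitine, an inner membrane carrier exchanges acylcarnitine for carnitine, and dehydrogenases, a hydratase and thiolases carry out each turn. Other members of the same carrier family exchange ADP for ATP and aspartate for glutamate. In the fly nervous system glia are the cells best known for fatty acid oxidation, while neurons draw mainly on glycolytic products.

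The libraries held 117416 to 1880528 counts assigned to genes (median 772916.5), so that 3 counts corresponded to 1.64 to 21.1 CPM (counts scaled to the depth of the library). The *tau* gene still gave 20 to 229 counts per library, 53.2 to 191 CPM, and where these reads lie relative to the deletion was not analysed here, so they do not check the genotype. The libraries male control 2 and male 1 h 2 stood apart. Their profiles correlated at 0.779 and 0.757 with the mean profile of all other libraries, while the remaining 22 reached 0.897 to 0.977. Summed muscle markers were 436 CPM in male control 2 and 495 CPM in male 1 h 2, against 3549 CPM or more in each other library. The members called in males are therefore also given without male control 2. Female control 2 had the highest summed markers of the antenna, 7554 CPM against at most 1302 CPM elsewhere, and of the fat body, 22830 CPM against at most 14300 CPM elsewhere. All 13 neuronal and all 13 glial markers had counts in every group, and summed photoreceptor markers of 2552 to 17090 CPM came from transcripts of the eye.

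A gene was called changed at an unadjusted p under 0.05 together with a log2 fold change (log2 FC) beyond 1 in either direction, in edgeR's quasi-likelihood test fitted to all 24 libraries. In males 2 h post-TBI 3 of 9 members were called, *colt*, *aralar1* and *yip2*, and all 3 were lower than in male controls. Of all 7865 tested genes 7.26% were called in that comparison, and 5.42% were called as lower. The members were chosen with earlier results of these data known, and the study itself reports *yip2* and *aralar1* as lower in injured males. The share of members called is therefore no independent test. In males 4 h post-TBI 1 of 9 was called, *colt*, also lower, against 3.92% of all genes called and 2.56% called as lower. In males 1 h post-TBI (4.64% of all genes called) and in females at 1 h (1.44%), 2 h (2.16%) and 4 h (1.42%), edgeR called 0 of 9 members, and 0 reached an unadjusted p of 0.05 at any fold. DESeq2 also called 0 of 9 in those 4 comparisons. After Benjamini-Hochberg adjustment over all tested genes no member and no other gene passed an FDR of 0.05 in any comparison of this edgeR fit. DESeq2 passed 0 to 4 genes per injury comparison at that FDR, none of them a member. With no filter on low counts edgeR passed 5 to 32 genes per injury comparison, none of them a member, and 155 genes in a test of any difference among the 8 groups, *yip2* among them (edgeR adjusted p = 0.0204). In the same test DESeq2 passed 11 genes, and edgeR without the 3 shallowest libraries passed 6. In the edgeR fit of the filtered table to all 24 libraries, with no further term, the lowest adjusted p of a member was 0.640. It belonged to *colt*, *aralar1* and *yip2* in males at 2 h.

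**Figure D1:**
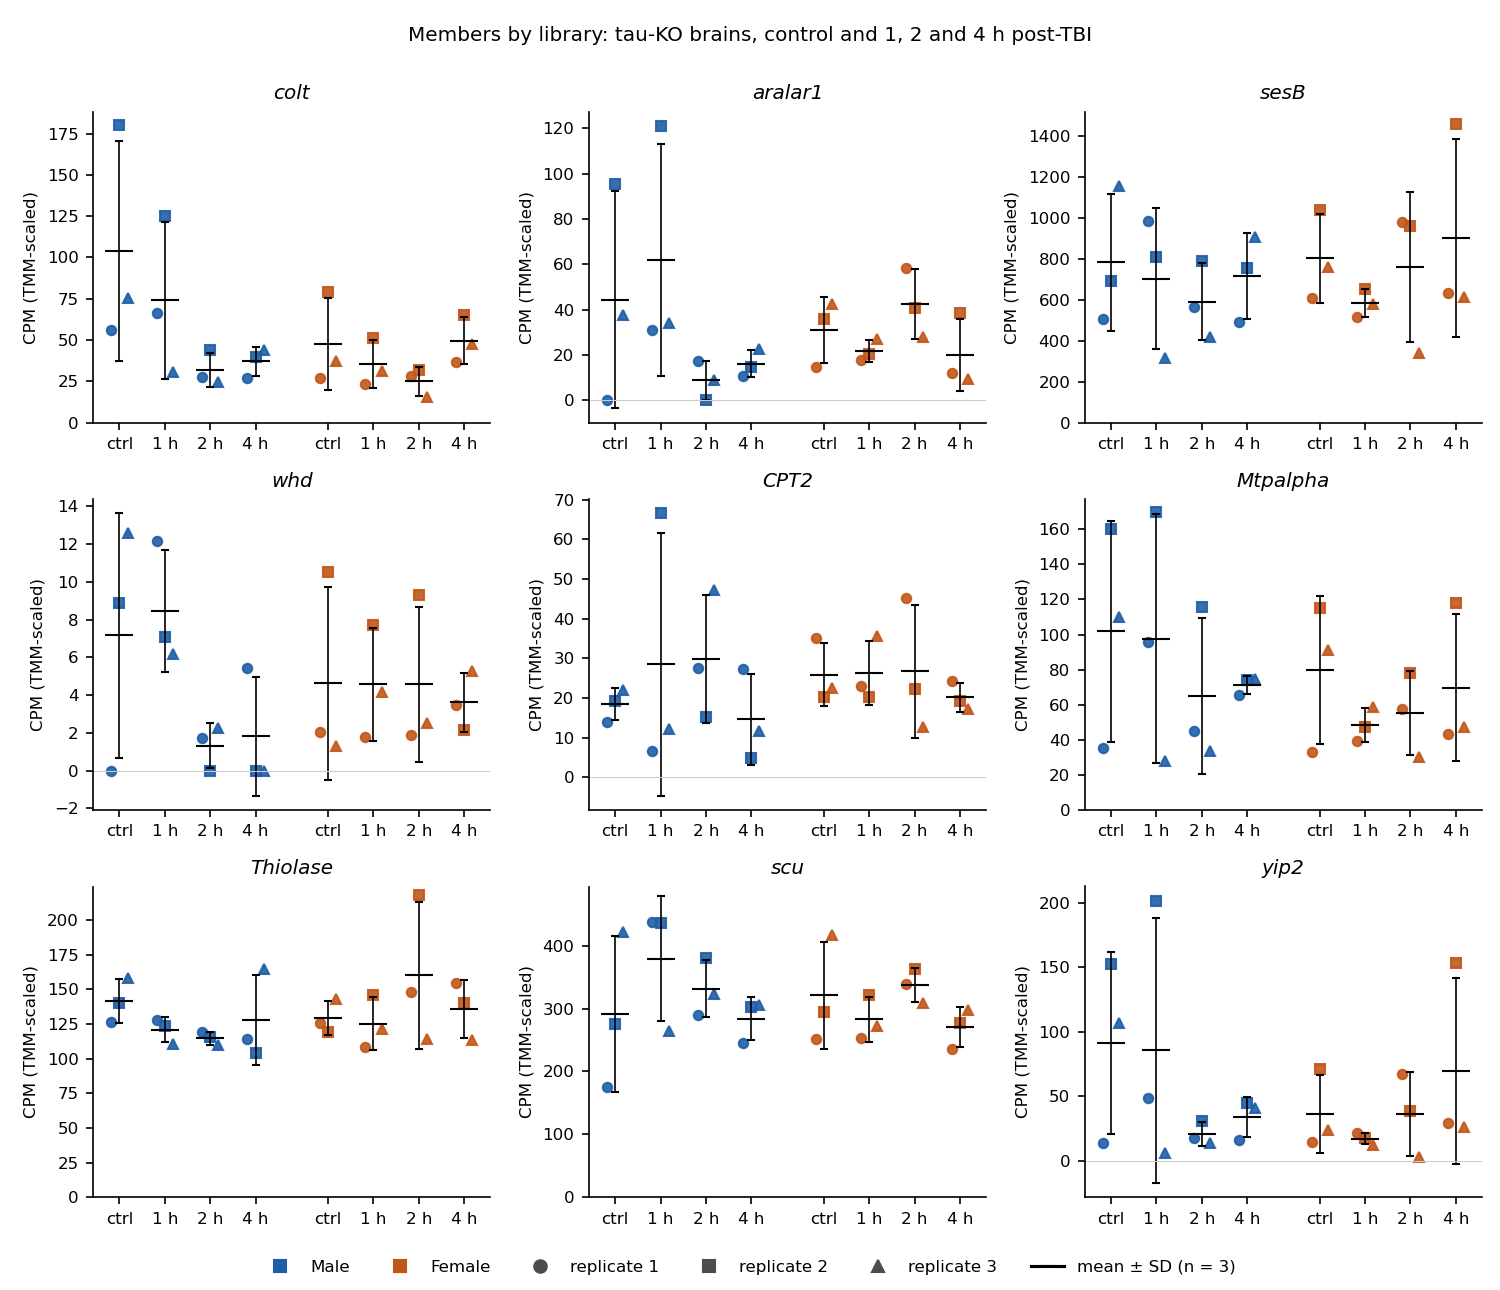
CPM of each of the 9 tested members (y axis, linear, scaled by trimmed mean of M values) in the 24 libraries, with control and then 1, 2 and 4 h after injury from left to right for males (blue) and then females (orange); each point is 1 brain, its shape is the replicate number, and the black bar is the mean ± SD of 3. The highest *colt* value, 180.0 CPM, belongs to male control 2, and *Thiolase* stays between 103.9 and 218.2 CPM in all 24.

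The carriers come first. *colt* encodes the carnitine/acylcarnitine carrier of the inner membrane, and it had the lowest p of any member. In males 2 h post-TBI *colt* had 27.7, 43.8 and 24.7 CPM, against 56.3, 180.0 and 75.6 CPM in male controls. In males 4 h post-TBI it had 27.3, 39.6 and 44.2 CPM. All 3 injured brains lay below all 3 controls at 2 h and again at 4 h. The groups averaged 32.1 ± 10.3 CPM at 2 h and 37.0 ± 8.75 CPM at 4 h, and 104 ± 66.6 CPM in controls (SD, n = 3 each). *colt* fell 3.27-fold at 2 h (log2 FC −1.71 ± 0.57 SE, edgeR adjusted p = 0.640). At 4 h it fell 2.81-fold (log2 FC −1.49 ± 0.57, edgeR adjusted p = 0.962). In males 1 h post-TBI *colt* had 66.5, 125.0 and 30.8 CPM, a range that overlaps the controls, and its log2 FC was −0.50 ± 0.54.

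The size of both *colt* differences rests on male control 2, whose 180.0 CPM is the highest of all 24 libraries. Without that library the log2 FC of *colt* was −1.04 ± 0.60 at 2 h and −0.82 ± 0.60 at 4 h (edgeR adjusted p = 1 for both), and neither was called. Males 2 h post-TBI still lay below the remaining controls at 56.3 and 75.6 CPM. Groups that did not overlap were found for 2 of 9 members in males at 2 h, *colt* and *Thiolase*, against 9.74% of all genes, and for 1 of 9 at 4 h, *colt*, against 6.79%. No member had such groups in males at 1 h (3.85% of all genes) or in females at 1 h (10.4%), 2 h (5.33%) and 4 h (6.1%).

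*aralar1* encodes the calcium-regulated carrier that exchanges aspartate for glutamate. In males 2 h post-TBI it had 17.3, 0 and 8.97 CPM, from 10, 0 and 4 counts. Male controls had 0, 95.3 and 37.8 CPM, from 0, 118 and 36 counts. The groups overlapped, since both hold a library at 0: the male control at 0 is the shallowest of the series, while male 2 h 2 at 0 is among the deepest with 1471729 counts. *aralar1* fell 5.95-fold (log2 FC −2.57 ± 0.99, edgeR adjusted p = 0.640). Without male control 2 its log2 FC was −1.53 ± 1.05 and not called, and the call was also lost without male 2 h 2, at −1.86, and in a fit of only the groups compared, at −2.61 ± 1.37. In males at 1 h *aralar1* had 30.9, 121.1 and 33.9 CPM (log2 FC 0.38 ± 0.86) and at 4 h it had 10.9, 14.9 and 22.6 CPM (log2 FC −1.51 ± 0.93), neither called.

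*sesB* encodes the ADP/ATP carrier and was counted deeply, with 15571 counts in total. Its means were 591 ± 187 CPM in males at 2 h and 718 ± 211 CPM at 4 h, and 785 ± 335 CPM in male controls. In females they were 584 ± 68.5 CPM at 1 h, 761 ± 365 CPM at 2 h and 903 ± 485 CPM at 4 h, and 804 ± 218 CPM in controls. The log2 FC of *sesB* stayed between −0.46 and 0.17 in the 6 comparisons with SEs of 0.44, so none was distinguishable from the spread between brains. In the reference annotation its exons overlap those of *Ant2*, the gene of a related ADP/ATP carrier, on the same strand, over 5.10% of their length.

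Of the carnitine shuttle enzymes, *whd* encodes carnitine palmitoyltransferase 1, the outer membrane step that commits fatty acids to oxidation in mitochondria. It had 100 counts in all, and no library held more than 13. In the reference annotation 5.70% of its exon bases lie under *asRNA:CR45134* and 5.40% under *CG11777*, both on the opposite strand, and whether the counting used strand is not given in the sources used here. Males 2 h post-TBI had 1, 0 and 1 counts, males 4 h post-TBI had 1, 0 and 0 counts, and male controls had 0, 11 and 12 counts. The summed ratio to controls at the depth of these libraries was 0.0864 at 2 h (95% exact interval 0.00988 to 0.350) and 0.0505 at 4 h (0.00123 to 0.311), intervals that cover counting error only. In the test across brains *whd* was not called, with a log2 FC of −2.68 ± 1.59 at 2 h (edgeR adjusted p = 0.645) and −3.07 ± 1.83 at 4 h (edgeR adjusted p = 0.962). DESeq2 called it lower at both hours. Male 4 h 2 and male 4 h 3 gave no *whd* count from 795992 and 992019 counts, whereas male 1 h 1 and male 1 h 2 gave 13 each.

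*CPT2* encodes the matrix enzyme that takes the acyl group back from carnitine. It was called in no comparison, and its log2 FC after injury lay between −0.58 and 0.62 in the 6 comparisons, with SEs of 0.74 to 0.82. The value of 0.62, in males at 1 h, rests on male 1 h 2: without that library it was −1.10 ± 0.81 (edgeR adjusted p = 0.860), not called. Its highest values were 66.6 CPM in male 1 h 2, 47.1 CPM in male 2 h 3 and 45.3 CPM in female 2 h 1, and its lowest was 4.95 CPM in male 4 h 2.

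Among the β-oxidation enzymes *yip2* varied most between brains and *Thiolase* least. *yip2* encodes a mitochondrial acetyl-CoA acyltransferase, a thiolase that splits acetyl-CoA from the chain. In males 2 h post-TBI *yip2* had 17.3, 31.0 and 13.5 CPM, against 14.1, 152.6 and 107.1 CPM in male controls. Male control 1, the shallowest library, lay among the injured brains, so the groups overlapped. *yip2* fell 4.51-fold (log2 FC −2.17 ± 0.98, edgeR adjusted p = 0.640). Without male control 2 it was −1.65 ± 1.07 and not called, and the call was also lost without male control 3 (−2.08), without male 2 h 1 (−2.05) and without male 2 h 3 (−1.96). At 4 h *yip2* had 16.4, 44.5 and 41.2 CPM (log2 FC −1.42 ± 0.96, not called). Over the 24 libraries its level spanned 79.6-fold.

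*Mtpalpha* and *Thiolase* encode the subunits of the trifunctional protein, which carries out the last 3 reactions of a turn on long chains. *Mtpalpha* averaged 64.7 ± 44.4 CPM in males at 2 h and 71.4 ± 5.19 CPM at 4 h, and 102 ± 62.8 CPM in male controls. Its log2 FC was −0.68 ± 0.61 at 2 h and −0.56 ± 0.61 at 4 h in males, and −0.74 ± 0.61 in females at 1 h, none of them called. *Thiolase* was the steadiest member. It had 119.3, 115.6 and 109.9 CPM in males 2 h post-TBI, against 126.7, 140.5 and 158.5 CPM in male controls, so the groups did not overlap. The difference was a log2 FC of −0.31 ± 0.33 (edgeR adjusted p = 0.795), within the spread that the fit assigns to such a gene. In females the 2 h brains had 148.2, 218.2 and 114.2 CPM, against 126.1, 119.3 and 142.8 CPM in controls. Its highest and lowest libraries differed 2.10-fold.

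*scu* encodes a short-chain 3-hydroxyacyl-CoA dehydrogenase of the matrix. It averaged 331 ± 45.3 CPM in males at 2 h and 284 ± 33.7 CPM at 4 h, and 291 ± 124 CPM in male controls. Its log2 FC ranged from −0.25 to 0.37 in the 6 comparisons (SE 0.32 in each), and its highest and lowest libraries differed 2.48-fold. *Mcad*, the medium-chain acyl-CoA dehydrogenase, gave its 1 count in female 1 h 2. In the reference annotation, a later build than that of the counts, 92.6% of its exon bases lie under *CG7457* on the opposite strand, a gene with 257 counts. A count of 0 in the other 23 libraries is therefore no measure of its absence. In that annotation *colt*, *Mtpalpha* and *yip2* lie on chromosome arm 2L, *whd* and *Thiolase* on 2R, *CPT2* and *Mcad* on 3L, *aralar1* on 3R, and *sesB* and *scu* on X, and no exon of *aralar1*, *CPT2*, *scu* or *yip2* overlaps another gene.

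**Figure D2:**
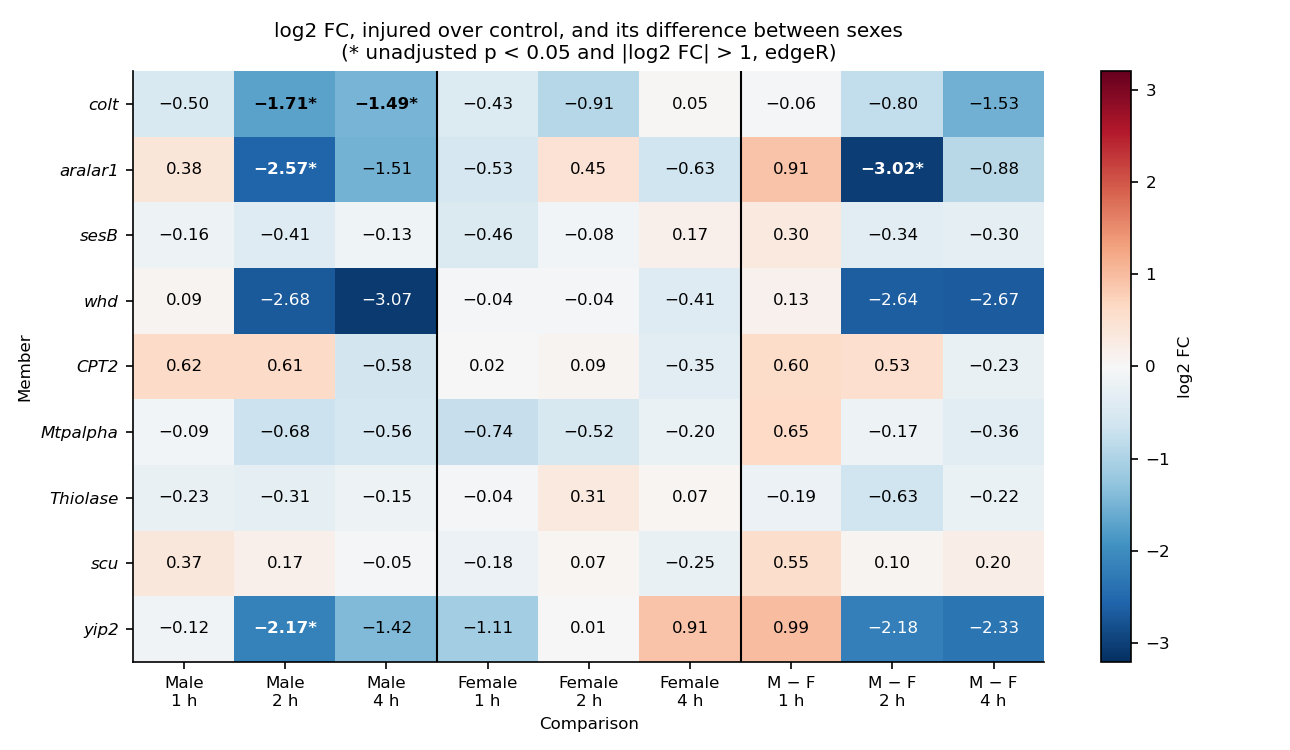
log2 FC from edgeR for the 9 members (down the page), injured over control in males and females at 1, 2 and 4 h, and the male minus female difference of these (M − F); colour and number give the value, and an asterisk marks an unadjusted p under 0.05 with a log2 FC beyond 1. The asterisks stand at *colt* in males at 2 h and 4 h, *aralar1* and *yip2* in males at 2 h, and *aralar1* in the M − F column at 2 h.

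As a set the 9 members had a median log2 FC of −0.68 in males at 2 h, where the median of all tested genes was −0.02, and 7 of 9 were negative (50.8% of all genes). In males at 4 h the median was −0.58 and 9 of 9 were negative, against −0.05 and 52.5% of all genes. Both comparisons use the same male control libraries, so they are not independent. These medians and signs include male control 2 and are not given without it. Some members moved together between brains, so the signs of the 9 members are not independent either. In males at 1 h the median was −0.09, with 5 of 9 negative (48.9% of all genes). In females the member medians were −0.43 at 1 h (8 of 9 negative, 53.6% of all genes), 0.01 at 2 h (4 of 9, 51.6%) and −0.20 at 4 h (5 of 9, 48.1%). Within the bulk RNA of a brain, fewer cells of a type that holds these transcripts and less RNA per cell cannot be told apart.

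Whether injury acted differently by sex was tested as an interaction, the male log2 FC minus the female log2 FC. At 2 h 1 of 9 members was called, *aralar1*, against 3.65% of all genes. *aralar1* had 58.5, 40.9 and 27.9 CPM in females 2 h post-TBI, against 14.5, 36.0 and 42.3 CPM in female controls (log2 FC 0.45 ± 0.88). The female brains at 2 h overlapped their controls, whereas no male brain at 2 h was above 17.3 CPM. The interaction was −3.02 ± 1.32 (edgeR adjusted p = 1.00), and without male control 2 it was −1.99 ± 1.35 and not called. The call was also lost without female control 1 (−2.70), female 2 h 1 (−2.72) or male 2 h 2 (−2.31). At 1 h (3.04% of all genes) and 4 h (3.05%) 0 of 9 were called by edgeR or DESeq2, and 0 had an unadjusted p under 0.05 in edgeR.

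For *colt* the interaction was not called at either hour with all libraries and no further term. In females 2 h post-TBI *colt* had 28.3, 31.6 and 15.2 CPM, against 26.9, 79.0 and 37.0 CPM in female controls (log2 FC −0.91 ± 0.56, edgeR adjusted p = 1), and the interaction at 2 h was −0.80 ± 0.79. At 4 h females had 36.5, 64.9 and 47.4 CPM (log2 FC 0.05 ± 0.55), and the interaction was −1.53 ± 0.79 (edgeR adjusted p = 1.00). At 4 h it was called with library depth as a further term (−1.38 ± 0.60, edgeR adjusted p = 1) and without female control 2 (−2.12 ± 0.83), male control 1 (−1.71), male control 3 (−1.74) or male 1 h 2 (−1.54), whereas without male control 2 it was −0.87 ± 0.80. For *yip2* the interaction was −2.18 ± 1.35 at 2 h and −2.33 ± 1.34 at 4 h. The high female value at 4 h came from female 4 h 2 alone, at 153.2 CPM beside 29.5 and 26.3 CPM.

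Between uninjured brains 1 of 9 members was called, *colt*, against 3.03% of all genes. *colt* was 2.21-fold higher in male controls than in female controls (log2 FC 1.14 ± 0.55, edgeR adjusted p = 1), with overlapping groups. The groups overlapped for each of the 9 members, and did not for 5.59% of all genes. Without male control 2 the log2 FC was 0.48 ± 0.59. The call was kept in 13 of 33 alternatives, 7 of them among the 24 that leave out 1 library, with values of 0.48 to 1.73, and it was also lost with no filter and with only the groups compared. Averaged over the 4 conditions, with 12 libraries of each sex, *colt* was 0.54 ± 0.28 higher in males on the log2 scale (edgeR adjusted p = 1.00). There 0 of 9 members were called (3.03% of all genes) and 0 had an unadjusted p under 0.05. Those 2 sex comparisons share the control libraries. In a test of any difference among the 8 groups, *colt* was the only member with an unadjusted p under 0.05 (edgeR adjusted p = 1.00), against 2.58% of all genes.

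**Figure D3:**
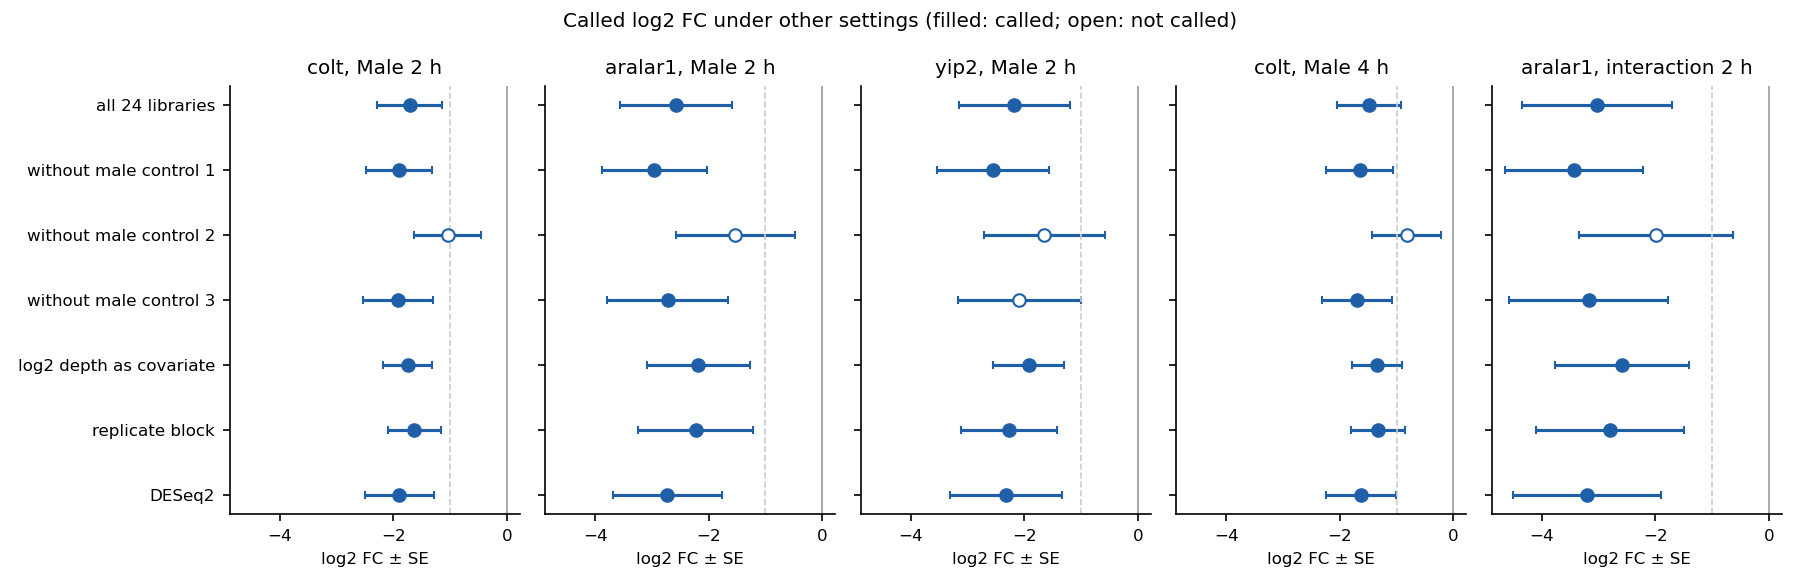
log2 FC ± SE (x axis) of the 5 called differences, male at 2 h or 4 h against control and the 2 h interaction, with all 24 libraries and under 6 other settings (y axis); filled points are called and open points are not. Every difference is open without male control 2, and *yip2* is also open without male control 3.

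Marker genes of other tissues differed with male control 2 as well. Summed neuronal markers were 4110 to 5262 CPM in males at 2 h, against 2181 CPM in male control 2 and 3575 and 4929 CPM in the other 2 male controls. Summed glial markers were 2071 to 2457 CPM in males at 2 h, against 3927 CPM in male control 2 and 2450 and 2498 CPM in the other 2. Muscle markers ranged from 4186 to 4349 CPM in males at 2 h, from 3939 to 4834 CPM in males at 4 h, and from 436 to 4276 CPM in male controls. Fat body markers ranged from 3712 to 7327 CPM in males at 2 h and from 1659 to 7147 CPM in male controls. No neuronal marker was at 0 in any library, 1 of 13 glial markers was at 0 in male control 1 and in male 4 h 1, and 1 or 2 of 13 muscle markers were at 0 in 8 of the 24 libraries, male control 2 among them. The part of tissue makeup in the 3 differences of *colt*, *aralar1* and *yip2* was not tested.

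The levels of several members rose with the depth of the library. Replicate 2 was the deepest library of every group except males at 4 h, so depth and replicate number were largely confounded. Which of these the levels followed was not tested. In every one of the 8 groups the deepest library had the highest *colt* value of its group, and the same held for *Mtpalpha* in 7 and for *yip2* and *sesB* in 5 groups each. The relation was measured with log2 depth as a further term in the edgeR fit, a term chosen after the values were seen. Per doubling of depth *yip2* was higher by 1.22 ± 0.19 on the log2 scale (adjusted p = 9.41e-06), *Mtpalpha* by 0.64 ± 0.12 (adjusted p = 0.000157), *colt* by 0.52 ± 0.12 (adjusted p = 0.00101), *sesB* by 0.43 ± 0.07 (adjusted p = 4.97e-05) and *scu* by 0.21 ± 0.07 (adjusted p = 0.0136). CPM already divides by depth, so the term is a change beyond it. *aralar1*, at 0.57 ± 0.25, missed the threshold (adjusted p = 0.0747). *Thiolase* at 0.10 ± 0.08, *whd* at 0.15 ± 0.48 and *CPT2* at −0.00 ± 0.20 showed no term beyond their error. Of the 9 members 5 had a positive term at an adjusted p under 0.05, and 1401 of all 7865 genes did (17.8%).

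**Figure D4:**
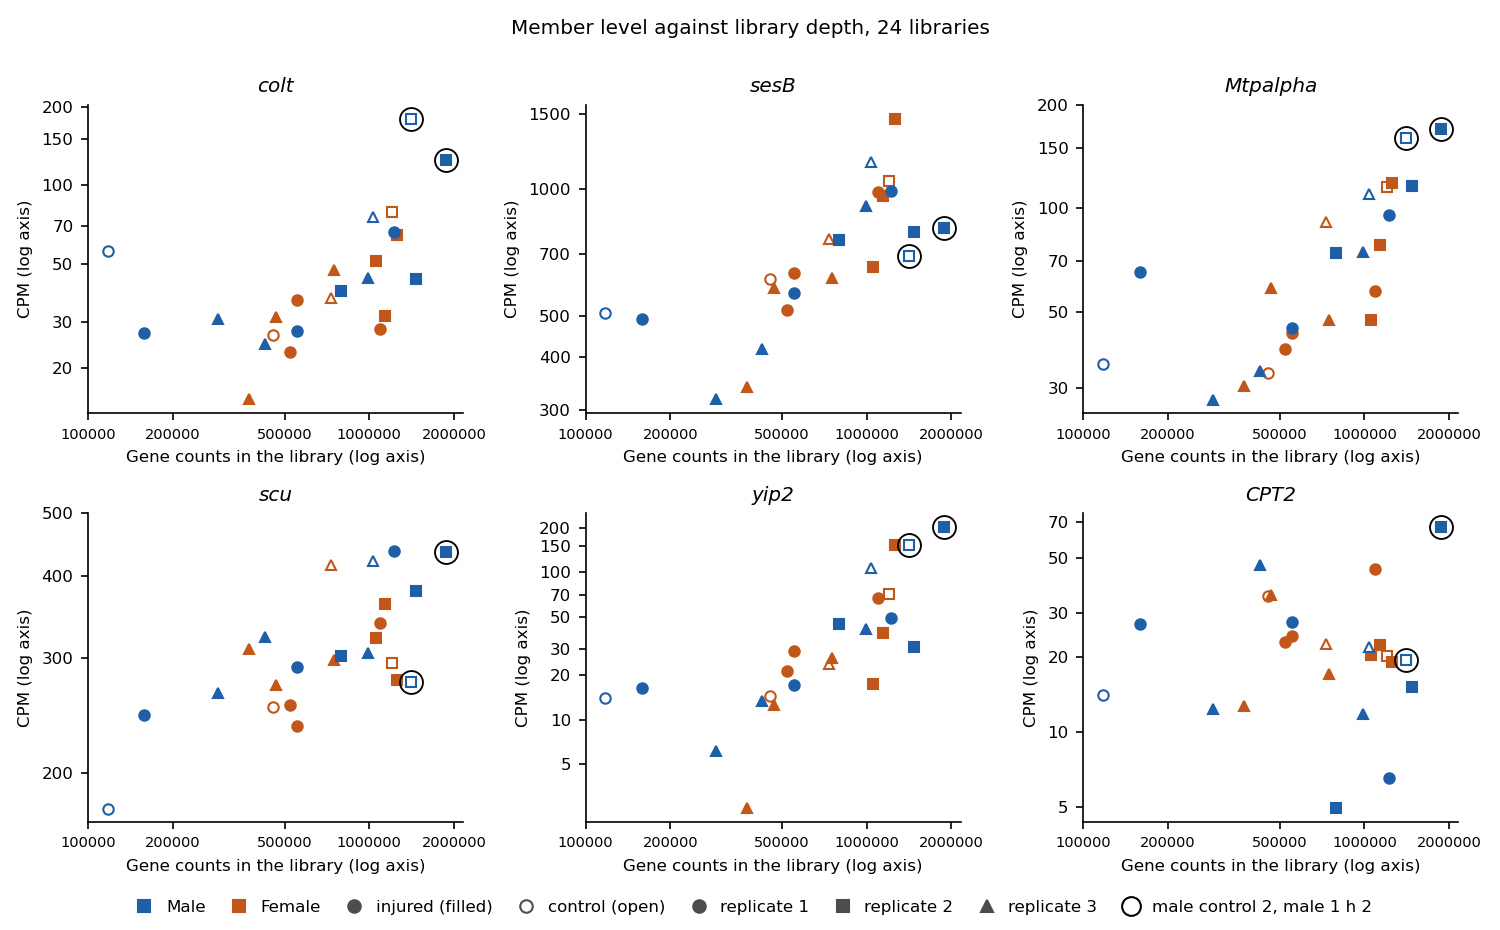
CPM (y axis, log scale) of 6 members against the gene counts of each library (x axis, log scale), 1 point per brain; blue marks males, orange females, open symbols controls, shapes the replicate number, and rings the libraries male control 2 and male 1 h 2. *yip2* and *Mtpalpha* climb with depth over both sexes, while *CPT2* scatters from 4.95 to 66.6 CPM with no slope.

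Over the 24 libraries *yip2* had r = 0.739 and rho = 0.874 with log2 depth (permutation p = 4e-05 and 1e-05, adjusted over 9 members 0.00018 and 3e-05). Its r was 0.849 without the 2 libraries farthest from the median depth, 0.776 within the 12 males and 0.825 within the 12 females. *Mtpalpha* had r = 0.731 and rho = 0.847 (permutation p = 4e-05 and 1e-05, adjusted 0.00018 and 3e-05), 0.888 without the 2 farthest, 0.799 within males and 0.759 within females. *colt* had r = 0.542 and rho = 0.692 (permutation p = 0.0066 and 0.00023, adjusted 0.0117 and 0.000517), 0.757 without the 2 farthest. Leaving out male control 2 and male 1 h 2, which stood apart, lowered r instead. It was then 0.686 for *yip2*, 0.676 for *Mtpalpha* and 0.432 for *colt*. The smallest p that 100000 permutations can give is 1e-05. The permutation p of r passed 0.05 after adjustment for 6 of 9 members, and *CPT2* had r = 0.0414.

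Depth varied within these groups. Males 2 h post-TBI had 552182, 1471729 and 425286 counts, and male controls had 117416, 1407485 and 1034729. With the depth term in the fit the male 2 h differences were still called, at −1.75 ± 0.43 for *colt*, −2.18 ± 0.90 for *aralar1* and −1.92 ± 0.63 for *yip2*, with adjusted p of 0.0768, 0.264 and 0.164 in edgeR.

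**Figure D5:**
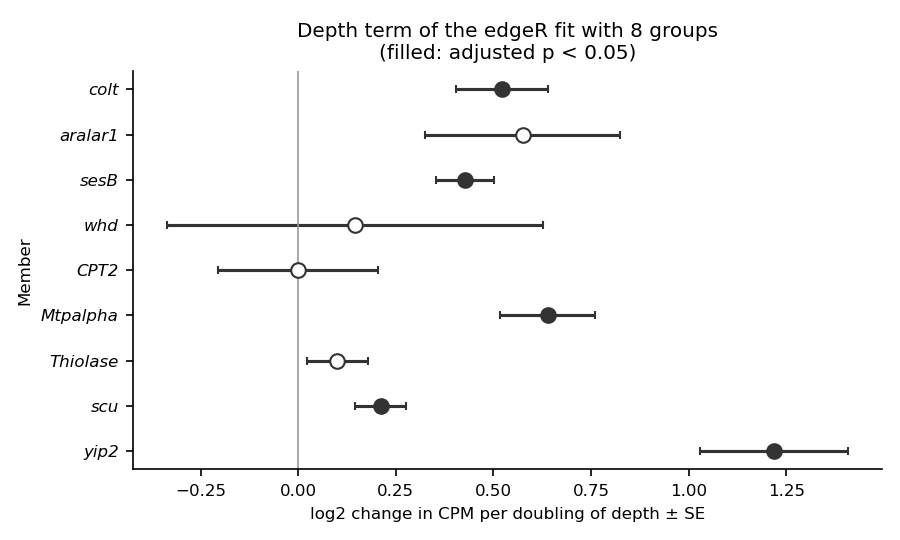
Change in log2 CPM per doubling of library depth ± SE (x axis) for the 9 members (y axis), from the edgeR fit with 8 groups; filled points have an adjusted p under 0.05. The term is largest for *yip2*, at 1.22, and is −0.00 for *CPT2*.

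Some members also moved with each other between brains. Of 36 pairs of members 34 had a positive r of log2(CPM + 5), 94.4%, with a median of 0.343. Over all pairs of the 7865 tested genes 51.6% were positive, with a median of 0.0143. Among the 4006 of these with a mean of at least 20 CPM, which leave out *whd*, 52.1% of pairs were positive, with a median of 0.0251. Of the 36 pairs 10 passed an adjusted permutation p of 0.05 by r, and 8 by both r and rho. The permutation ran over all 24 libraries with no term for depth or group, so what pairs share through depth was not separated. *scu* had r = 0.226 with *colt*, 0.397 with *yip2* and 0.457 with *sesB*, none of which passed by r, while *aralar1* passed by r with *yip2* and *whd*, and *sesB* with *Thiolase*. The pair of *aralar1* and *whd* did not pass by rho (adjusted permutation p = 0.0785). Without male control 2 and male 1 h 2 *aralar1* had r = 0.324 with *yip2* and 0.470 with *whd*, and *sesB* had 0.5505 with *Thiolase*. The closest pair was *Mtpalpha* with *yip2* (r = 0.864, rho = 0.848, permutation p = 1e-05 each, adjusted 0.00012 and 0.00018), which kept r = 0.802 without the 2 libraries farthest from the median. *CPT2* passed with no other member. The genes of at least 20 CPM whose pattern over the 24 libraries was nearest to *yip2* were the ribosomal protein genes *RpL35A* (r = 0.954), *RpL4* (r = 0.938) and *RpL28* (r = 0.936). Nearest to *Mtpalpha* were *CG5885* (r = 0.927), *CG9034* (r = 0.921) and *ND-15* (r = 0.921), nearest to *sesB* were *MRE16* (r = 0.924), *RpS12* (r = 0.915) and *fon* (r = 0.912), and nearest to *colt* were *Dsk* (r = 0.864), *RpS28b* (r = 0.863) and *Spn43Ab* (r = 0.839). For *aralar1* they were *RpL31* (r = 0.879), *Cyp4e2* (r = 0.834) and *Ugt86Dd* (r = 0.824), and for *scu* they were *mRpL20* (r = 0.847), *GstE12* (r = 0.842) and *Qtzl* (r = 0.835). The steadier or rarer members had no close match: the highest r was 0.742 for *whd* (*CG7289*), 0.675 for *CPT2* (*CG6439*) and 0.634 for *Thiolase* (*SNRPG*). These likenesses over 24 libraries are descriptions with no test, and their points share depth. Without male control 2 and male 1 h 2 the same genes had r = 0.73, 0.70 and 0.71 with *colt*. With *sesB* its matches then had r = 0.97, 0.93 and 0.92.

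The rest of the pathway was taken from a list of 39 other fatty acid oxidation genes, of which 31 were tested. In males edgeR called 1 lower at 1 h, 3 lower at 2 h and 3 lower at 4 h, with none higher. Of all genes 2.64%, 5.42% and 2.56% were called as lower at these hours. *pdgy*, an acyl-CoA synthetase that activates fatty acids, was called at each hour. It had 29.4, 65.0 and 35.9 CPM in males 2 h post-TBI, against 70.4, 226.1 and 64.0 CPM in male controls, so male 2 h 2 reached into the control range (log2 FC −1.48 ± 0.57). *bgm*, a synthetase for very long chains, had 3.46, 6.80 and 6.73 CPM at 2 h, against 0, 88.8 and 26.2 CPM in male controls (log2 FC −2.83 ± 1.10). *CG6638* had 0 counts in the injured brains at 2 h and 10 in male controls. Its summed control level was 3.35-fold over a floor of 3 counts in the injured group. At 4 h *CG4598* was called (log2 FC −1.61 ± 0.75). *Acox57D-p*, an acyl-CoA oxidase, gave 0 counts in injured males at 4 h and 16 in their controls, 4.60-fold over the same floor. Its male controls had 0, 11.3 and 2.10 CPM. Folds over this floor cover counting in the injured group only, not the spread between control brains. In females *Acox57D-p* was called at 1 h (1.44% of all genes called), with a control level 3.49-fold over the floor. All 12 control counts came from female control 2. No gene of the list was called in females at 2 h or 4 h. Male control 2 held the highest control value of *pdgy*, *bgm*, *CG4598* and *Acox57D-p*, and without it *pdgy* at 2 h had a log2 FC of −0.60 ± 0.60 and *bgm* −1.50 ± 1.17. The list median was −0.10, −0.29 and −0.60 in males at 1, 2 and 4 h, and −0.44, −0.07 and −0.23 in females.

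Of 44 other genes of the mitochondrial carrier family 23 were tested, and 2 were called lower in males at 2 h, against 5.42% of all genes. *mfrn*, which imports iron, had 24.2, 20.4 and 38.1 CPM there, against 35.2, 66.2 and 58.8 CPM in male controls (log2 FC −1.02 ± 0.45). *Tpc1*, a carrier of thiamine pyrophosphate, had 3 counts against 39, a ratio of 0.0765 (95% exact interval 0.0151 to 0.241). No carrier of the list was called in males at 1 h or 4 h. Without male control 2 *mfrn* was at −0.85 ± 0.50, and of the 13 calls made in males over this list, the other fatty acid oxidation genes and a list of fat storage genes 12 were lost, while *Acox57D-p* at 4 h no longer passed the filter and was not tested. *Tpc1* at 2 h was then at −2.76 ± 1.73, against −3.22 ± 1.58 with all libraries, and *CG6638* at a fitted −4.50 ± 2.22, which depends on the prior count. In females 1 of the 23 was called at 1 h, 3 at 2 h and 1 at 4 h, against 1.44%, 2.16% and 1.42% of all genes. *Tpc1* was called lower at 1 h, with 1 count against 16 (ratio 0.0717, 95% exact interval 0.00171 to 0.462). At 2 h *Ant2*, *MME1* and *CG18327* were called lower in females, from 10, 23 and 7 control counts. All *Ant2* control counts came from female control 2 (0, 8.77 and 0 CPM in the 3 controls), which also held 19.3 CPM of *MME1* beside 2.07 and 0 CPM. Without that library 3 of the 6 calls made in females over these lists were lost, *Ant2* and *MME1* at 2 h and *Tpc1* at 1 h, *Acox57D-p* was not tested, and *CG18327* and *CG5254* were still called. The part of the antennal and fat body markers of female control 2 in these differences was not tested. *CG5254* was called higher at 4 h (log2 FC 1.76 ± 0.67), on 344.8 CPM in female 4 h 2 beside 46.9 and 36.9 CPM in the other 2 brains. The list median was −0.11, −0.59 and −0.46 in males at 1, 2 and 4 h, and −0.33, −0.16 and −0.08 in females.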

How the data were processed

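The count values are reads per gene that the authors deposited without normalization. They sorted 50 bp QuantSeq 3′ reads to libraries with CASAVA 1.8.2, aligned them to dm3 with STAR 2.4 and counted them with HTSeq, as given in the methods and the submitters' processing notes. The annotation version and strand setting are not given in the sources used here. Reads assigned to no gene, 21.3 to 46.0% per library, stayed out of library sizes, and 0 columns lacked a sample. The deposited tables of the authors' own edgeR 3.22.3 comparisons, among them *w1118* with *tau*-KO controls, hold log2 fold changes, average log2 CPM, likelihood ratio scores, p-values and FDR, and were not used.

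Genes with at least 5 counts in at least 3 libraries were fitted as 8 groups with edgeR 4.0.16 (R 4.3.3, limma 3.58.1), TMM factors and the robust quasi-likelihood F-test, with Benjamini-Hochberg adjustment over all tested genes. The methods state an FDR under 0.05 and the figure legends an unadjusted p under 0.05, both with an absolute log2 FC over 1. Calls follow the legends. CPM values were computed here from the deposited counts. An SE is the unshrunken log2 FC divided by the square root of F, since edgeR gives none. Where a group at 0 counts made the unshrunken value extreme, the log2 FC shrunken by the prior count took its place. DESeq2 1.42.0, RLE factors, other filters, a replicate block, fewer libraries or groups and a depth term were tried as alternatives. Correlations used log2(CPM + 5), Python 3.11.15, numpy 2.4.6, scipy 1.17.1, pandas 2.3.3 and matplotlib 3.10.9. The fit was tested on simulated data.

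The members and gene lists were chosen with earlier results of these data known. All members were named, with every called gene of each related list (at most 6 of lowest p) and the 3 genes most like each member. Gene overlaps came from a later annotation, and *Thiolase* is *Mtpbeta* there. Nothing in the labels states that the libraries of a group came from separate vials, so p-values measure the spread between these brains.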

Additional observations from a re-analysis of the deposited data

Results flagged for a closer look

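*aralar1*, the carrier that exchanges aspartate for glutamate, was called in the interaction of sex and injury 2 h post-TBI, by its unadjusted p only. The male minus female log2 FC was −3.02 ± 1.32 (edgeR adjusted p = 1.00). Its mean was 8.76 ± 8.65 CPM in males at 2 h and 44.4 ± 48.0 CPM in male controls, and these groups overlapped. In females its mean was 42.4 ± 15.4 CPM at 2 h and 30.9 ± 14.6 CPM in controls (SD, n = 3 each). The value rested on few counts in males at 2 h, 14 in 3 libraries, and on male control 2, which alone held 118. Without male control 2 the interaction was not called.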

How the results depend on the processing

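No log2 FC that was called changed sign under any alternative tried. Of the values of single members under settings other than leaving out 1 library 9 lost their call, 15 gained one, 9 moved by more than their error and 833 did none of these. Leaving out male control 2 together with male 1 h 2 left 0 members called in males at 2 h and 4 h, in the 2 h interaction, between male and female controls and among the 8 groups. At 4 h in males DESeq2, no filter and leaving out the 3 shallowest libraries each called 2. In the 2 h interaction no filter, the replicate block, leaving out the 3 shallowest and the depth term each called 2 (*aralar1*, *yip2*), and in the 4 h interaction each of these called 1: *yip2* with no filter, *colt* with the block (−1.46 ± 0.65) and with the depth term, and *whd* without the 3 shallowest. Between controls 0 were called with only the groups compared, and 2 without the 3 shallowest or with the depth term. Among the 8 groups DESeq2 and the depth term called 2, and no filter and leaving out the 3 shallowest called 3. Leaving out 1 library at a time gave 0 to 3 members in males at 2 h, 0 to 2 at 4 h, 0 to 2 in the 2 h and in the 4 h interaction, 0 to 1 between controls and 0 to 2 among the 8 groups. Counts over all genes ran from 195 to 1124 in males at 2 h (571 as reported), 18 to 561 at 1 h (365) and 105 to 453 at 4 h (308), and from 60 to 200, 32 to 228 and 50 to 171 in females at 1, 2 and 4 h (113, 170 and 112). For the interactions they ran from 113 to 451, 168 to 596 and 138 to 340 (239, 287 and 240), for controls from 69 to 549 (238), over 4 conditions from 115 to 677 (238) and among the 8 groups from 107 to 742 (203). The cause was not tested. The fit reported here did not pair the libraries by replicate number, although same-numbered libraries were more alike in the median. Deviations from group means correlated at −0.415 to 0.607 (median 0.181, 54 of 84 over 0.1) for the same number. For different numbers the median was −0.119 (49 of 168 over 0.1), and 15 of 24 libraries correlated best with their own number. With the replicate block *colt*, *aralar1* and *yip2* were still called in males at 2 h. What same-numbered libraries share was not tested. At the shallowest depth 3 counts are 21.1 CPM, so *whd* could not be measured there.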

Other observations

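Of 20 genes of fat storage and lipolysis 16 were tested. In males 1 was called lower at each of 1, 2 and 4 h, and 1 higher at 2 h. Of all genes 4.64%, 7.26% and 3.92% were called at these hours. *Akh*, the adipokinetic hormone that mobilises stored fat, was called lower in males at all 3 hours (log2 FC −3.10 ± 1.05, −2.17 ± 1.00 and −2.12 ± 1.00 at 1, 2 and 4 h). It had 568.9, 190.4 and 489.0 CPM in males 2 h post-TBI, against 753.4, 4382 and 449.3 CPM in male controls, where the value of 4382 CPM belongs to male control 2. *Hnf4*, a nuclear receptor that drives fatty acid oxidation genes in fasted flies, was called higher in males at 2 h, with 136.6, 69.5 and 116.6 CPM, against 63.4, 22.6 and 66.1 CPM in male controls (log2 FC 1.12 ± 0.55), and its groups did not overlap. Without male control 2 neither was called, at −0.52 ± 0.95 for *Akh* and 0.72 ± 0.58 for *Hnf4* at 2 h. No gene of the list was called in females.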
